A study of Mus musculus with 25 samples.

Results

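The genes described here encode 7 adhesion molecules of blood vessels, Icam1, Vcam1, Sele, Selp, Madcam1, Pecam1 and Cdh5. These genes were chosen by name from what they do, with earlier results of these data known, as were the gene lists below. All 7 had a probe on the array, and 6 of them were among the 25448 genes or unnamed probes tested. Sele was not among them because on none of the 25 arrays was its probe well above background. Each array held RNA of the whole colon of 1 female mouse aged 8 weeks. WT mice were of the strain C57Bl/6j, and Card9-/- mice lacked the adaptor CARD9 on that background. The sources used here do not give the deleted part of Card9. Dextran sulphate sodium (DSS), a sulphated sugar polymer that damages the lining of the colon, was given in the drinking water at 2% for 7 days, and plain water followed for 5 days. The groups were WT before DSS (3 arrays), Card9-/- before DSS (3), WT at day 7 (5), Card9-/- at day 7 (4), WT at day 12 (5) and Card9-/- at day 12 (5). All groups other than day 0 had drunk DSS, and no group at day 7 or 12 without DSS is part of the comparisons.

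Leukocytes leave the blood in steps. P-selectin and E-selectin (Selp and Sele) on activated endothelium bind the sugar-decorated ligand PSGL-1 (Selplg) and let the cells roll. ICAM-1, VCAM-1 and MAdCAM-1, of the immunoglobulin superfamily, then bind integrins and bring the cells to a stop, and MAdCAM-1 with its partner integrin α4β7 is the address of gut venules. Cells then pass between endothelial cells that are held together by VE-cadherin (Cdh5) and PECAM-1. In vessels, inflammatory cytokines such as TNF and IL-1 are known to induce the selectins, ICAM-1, VCAM-1 and MAdCAM-1, while PECAM-1 and VE-cadherin are made by endothelium at rest.

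RefSeq promoters of build GRCm38.p6 were at hand for 4 of the 7 genes, Icam1, Sele, Selp and Madcam1, and are shown because these genes are ones that cytokines are known to induce. Each is the 250 bases before the start of the gene, written 5′ to 3′ on the strand of the gene. Capitals mark a match on either strand to the NF-κB consensus or to GGANNTTCC, a shorter search chosen after the sequences had been seen.
Icam1: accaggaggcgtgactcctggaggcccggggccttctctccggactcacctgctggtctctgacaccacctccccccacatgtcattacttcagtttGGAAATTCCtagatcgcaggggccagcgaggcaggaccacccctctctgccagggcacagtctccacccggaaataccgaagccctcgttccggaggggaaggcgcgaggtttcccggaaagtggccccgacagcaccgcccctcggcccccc
Sele: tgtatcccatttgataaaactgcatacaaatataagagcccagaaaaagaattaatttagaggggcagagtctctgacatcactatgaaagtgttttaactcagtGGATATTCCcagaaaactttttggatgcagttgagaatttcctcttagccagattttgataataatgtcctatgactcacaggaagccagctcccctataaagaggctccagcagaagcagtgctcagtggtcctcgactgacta
Selp: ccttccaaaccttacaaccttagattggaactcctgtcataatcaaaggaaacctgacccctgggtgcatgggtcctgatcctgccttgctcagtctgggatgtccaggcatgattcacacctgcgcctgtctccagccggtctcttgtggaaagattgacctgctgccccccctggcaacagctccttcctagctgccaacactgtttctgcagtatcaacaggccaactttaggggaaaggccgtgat
Madcam1: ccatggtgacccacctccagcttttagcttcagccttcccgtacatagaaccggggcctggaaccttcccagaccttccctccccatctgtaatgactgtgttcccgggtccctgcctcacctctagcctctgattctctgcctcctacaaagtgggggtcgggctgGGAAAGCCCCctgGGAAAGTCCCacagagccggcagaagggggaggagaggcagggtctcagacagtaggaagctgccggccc
These windows are chr9:21015690-21015939 for Icam1, chr1:164047984-164048233 for Sele, chr1:164115014-164115263 for Selp and chr10:79664309-79664558 for Madcam1, all on the plus strand. Madcam1 held the NF-κB consensus at 2 places, from -83 to -74 and from -70 to -61 counted from the start of the gene, both on the minus strand. The consensus occurred in 7.25% of the 32841 promoters of this length, and the other 3 windows had no match. GGANNTTCC matched in Icam1 from -153 to -145 on both strands, in Sele from -145 to -137 and, inside the second NF-κB match, in Madcam1 from -70 to -62. It occurred in 3.59% of all promoters. The AP-1 motif TGANTCA, in 6.75% of all promoters, matched in Sele from -73 to -67 and in Selp from -139 to -133. The GAS motif TTCNNNGAA, the form bound by STAT proteins, was in 7.02% of promoters and matched in Icam1 from -42 to -34 and in Sele from -140 to -132, where it overlapped the GGANNTTCC match. TATAAA, in 12.4% of promoters, matched in Sele from -49 to -44. All motifs were searched on both strands. These matches are letters in a window, and no binding was measured in this series.

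Levels are log2 signals minus the 75th percentile of the same array, so that 0 is the 75th percentile, and they cannot be compared between probes. That percentile lay between 196.1 and 661.3 intensity units, and the number of arrays limits the precision. The 8 colon epithelium markers had a mean level of 6.46 to 7.11 on every array. The Card9 probe checks the labels, and it went against them: it had a mean level of -6.06 in WT and -1.20 in the arrays labelled Card9-/- at day 0, and was brighter in the latter at each day. Directions between genotypes therefore rest on the labels. On 4 arrays (labelled Card9-/- at day 7, replicates 2 and 3, at day 12, replicate 1, and WT at day 12, replicate 5), the mean of 11 pancreatic acinar genes was 3.67 to 9.80, against -5.33 to -1.73 on the other 21. Results of the adhesion genes that move without these arrays are given with and without them. The gene lists were not recomputed without these arrays. Without them, calls over all genes from day 0 to day 7 in the arrays labelled Card9-/- went from 5005 to 3275. List counts that include these arrays may thus move too. In whole colon, fewer cells of a type and less RNA per cell cannot be told apart.

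Selp, the vascular and platelet selectin, rose by day 7 in both genotypes, from day 0 signals that were not well above background. In WT its level was -5.78, -4.96 and -4.81 on the 3 arrays before DSS and -3.46, -2.29, 0.04, -1.53 and -2.47 on the 5 arrays at day 7. The groups did not overlap, and no day 0 array was well above background. Selp rose by 3.25 ± 0.73 on the log2 scale (standard error, SE), at least 6.58-fold, with a limma adjusted p of 0.0138. In the arrays labelled Card9-/- the level was -6.02, -5.34 and -5.47 at day 0 and -0.85, -1.32, -0.47 and -0.13 at day 7. Every day 7 array lay far above every day 0 array, and again no day 0 array was well above background. The rise was 4.92 ± 0.76, at least 15.5-fold (limma adjusted p = 0.000167). For a bound given as "at least", each dim array counted with its dimmest signal well above background, where that exceeded the probe itself, and the mean of these was compared with that of the bright arrays. The size of the Selp rise, and its rank among the 6 genes, depended on the background correction, and the bounds hold for the processed signals only. With normexp and an offset of 50 it was 2.23 in the arrays labelled Card9-/- and 1.53 in WT, and it was 2.68 and 1.63 in the authors' deposited value table. In the arrays labelled Card9-/- it was the largest of the 6 with the processed signals, while Madcam1 was larger with normexp (3.25) and in the value table. The call in WT was lost in the value table (adjusted p = 0.0613), in a fit of the WT groups of that comparison alone (0.155) and without WT day 0 replicate 1 (0.0865) or 2 (0.0518). At day 12 Selp had levels of -3.30, -2.31, -1.74, -4.24 and -2.74 in WT and -3.80, -3.02, -1.24, -0.98 and -0.40 in the arrays labelled Card9-/-. All 10 arrays still lay above all 6 arrays of day 0.

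Sele, the selectin made by activated endothelium, was dim throughout, with no array well above background. Its level was -7.18 to -6.57 in WT and -7.33 to -6.30 in the arrays labelled Card9-/- before DSS. At day 7 the ranges were -6.18 to -5.33 and -6.23 to -5.12, and at day 12 they were -6.78 to -5.35 and -6.54 to -4.89. In both genotypes the day 7 arrays all lay above the day 0 arrays, narrowly so in the arrays labelled Card9-/- (-6.23 against -6.30). Among the 25448 tested genes or probes, 4.7% in WT and 9.01% in the arrays labelled Card9-/- had this pattern. The share among probes as dim as that of Sele was not counted. In a fit without the filter on dim probes, Sele was called at day 7 in the arrays labelled Card9-/- (1.22 higher, limma adjusted p = 0.0473), where 4.59% of all 34779 genes or probes were called higher. It was not called in WT at day 7 (1.10, 0.153) or at day 12 in the arrays labelled Card9-/- (1.20, 0.085). Since both sides of these differences are dim, no fold is given.

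**Figure D1:**
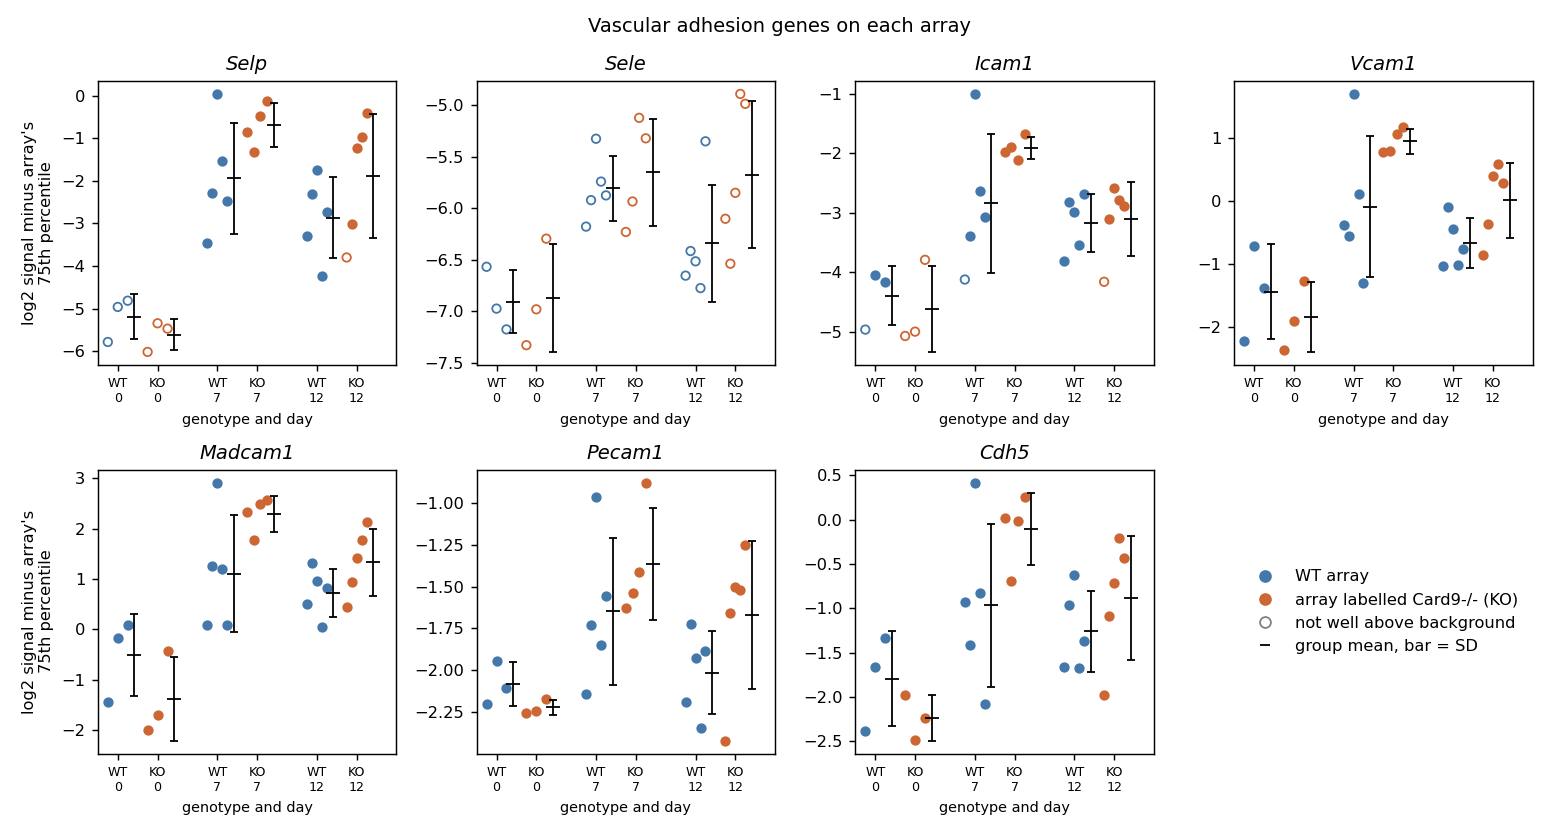
Level of each gene (log2 signal minus the array's 75th percentile, vertical axis) on every array by genotype and day, with open circles for signals not well above background; the black marks are group means with their SD. At day 7 the 4 arrays labelled Card9-/- sit close together for Icam1 (-2.11 to -1.68) and less so for Selp (-1.32 to -0.13). In WT, 1 array lies above the other 4 in all 6 measured genes (Icam1 -1.01).

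In the arrays labelled Card9-/-, Icam1, Vcam1 and Madcam1, which bind leukocyte integrins, rose by day 7. Madcam1, the ligand of integrin α4β7, had levels of -2.01, -1.70 and -0.44 before DSS and 2.33, 1.76, 2.48 and 2.57 at day 7. All day 7 arrays were above all day 0 arrays, by 3.67 ± 0.57 on average, a 12.7-fold rise (limma adjusted p = 0.000158). Vcam1, the ligand of integrin α4β1, had levels of -2.37, -1.91 and -1.27 before DSS and 0.76, 0.79, 1.05 and 1.17 at day 7. The groups did not overlap, and Vcam1 rose by 2.79 ± 0.51, or 6.92-fold (limma adjusted p = 0.000637). Icam1, the ligand of the β2 integrins, had levels of -5.07, -5.00 and -3.79 before DSS, none of them well above background, and -1.97, -1.90, -2.11 and -1.68 at day 7. Here too the groups were apart, with a rise of 2.70 ± 0.52, at least 6.15-fold (limma adjusted p = 0.00104). Icam1 moved with the background correction, to 1.21 with normexp and 1.35 in the authors' deposited value table, and was called in both.

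In WT the same 3 genes were higher at day 7 on average and did not pass the test. Madcam1 had levels of -1.44, -0.18 and 0.08 before DSS and 0.08, 1.26, 2.91, 1.19 and 0.09 at day 7. The lowest day 7 arrays were level with the highest day 0 array, and the difference was 1.62 ± 0.54 (limma adjusted p = 0.0973). Vcam1 had levels of -2.23, -0.72 and -1.38 and then -0.39, -0.56, 1.69, 0.10 and -1.31, which overlap, with a difference of 1.35 ± 0.48 (limma adjusted p = 0.128). Icam1 had levels of -4.96, -4.05 and -4.16 and then -4.12, -3.39, -1.01, -2.64 and -3.07. Icam1 on 1 of the 5 day 7 arrays fell within the day 0 range, and the difference was 1.55 ± 0.50 (limma adjusted p = 0.0843). Icam1 in WT was called with normexp (0.85, adjusted p = 0.0426), with the mean of the Hox genes of the proximal colon as a covariate (1.68, 0.0403) and without WT day 7 replicate 1 (1.87, 0.0214). Madcam1 was also called without that replicate (1.88, 0.0441), and Vcam1 without WT day 7 replicate 5 (1.66, 0.0491).

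Cdh5 and Pecam1, the junction proteins of resting endothelium, were also higher by the test at day 7 in the arrays labelled Card9-/-. Cdh5 had levels of -1.98, -2.49 and -2.24 before DSS and 0.02, -0.69, -0.02 and 0.26 at day 7. The groups did not overlap and Cdh5 rose by 2.13 ± 0.46, or 4.37-fold (limma adjusted p = 0.00258), and by 1.52 with normexp. Pecam1 had levels of -2.25, -2.24 and -2.17 before DSS, a narrow range, and -1.63, -1.54, -1.41 and -0.88 at day 7. Its rise of 0.86 ± 0.26, or 1.81-fold, was the smallest of the 6 (limma adjusted p = 0.021). The Pecam1 call was lost with quantile normalization (adjusted p = 0.0526), with the Hox covariate (0.102) and without day 0 replicate 1 (0.0687), day 0 replicate 2 (0.0665) or day 7 replicate 4 (0.0744) of the arrays labelled Card9-/-. In WT, Cdh5 had levels of -2.38, -1.66 and -1.33 and then -0.93, -1.42, 0.42, -0.83 and -2.08. Pecam1 in WT had levels of -2.20, -1.94 and -2.11 and then -2.14, -1.73, -0.96, -1.85 and -1.56. Both overlapped with day 0, and the differences were 0.83 ± 0.44 for Cdh5 (limma adjusted p = 0.358) and 0.44 ± 0.24 for Pecam1 (0.388).

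Counted together in the arrays labelled Card9-/-, 6 of 6 tested genes rose from day 0 to day 7, where 6.93% of all 25448 tested rose. Since the genes and lists were chosen with earlier results known, the shares of all genes are a scale and not a test. For all 6 the groups did not overlap, which held for 9.01% of all genes in that direction. The median difference of the 6 was 2.75 and that of all genes -0.08. In WT, 1 of 6 rose, where 2.02% of all genes did, and that gene was also the 1 whose groups did not overlap (4.7% of all genes). All 6 differences were positive in WT, with a median of 1.45 against 0.03 for all genes. The WT count was 2 with normexp, 2 with the Hox covariate, 0 in the authors' deposited value table and 0 in a fit of the WT groups of that comparison alone. It was 0 without WT day 0 replicate 1 or 2, 3 without WT day 7 replicate 1 and 2 without WT day 7 replicate 5. Arrays lay on 4 slides. Within the 2 slides that held both groups, the differences of all 6 genes were positive in the arrays labelled Card9-/- (Selp 4.56 and 5.89, Madcam1 3.40 and 4.58, Icam1 2.42 and 3.39). In WT, within 3 slides, all were positive except that of Cdh5 on 1 slide (-0.75 to 1.56). On that slide, with 1 array of each group, Madcam1 (0.009) and Vcam1 (0.069) hardly differed. Slide as a random block changed no call of these genes in any comparison.

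**Figure D2:**
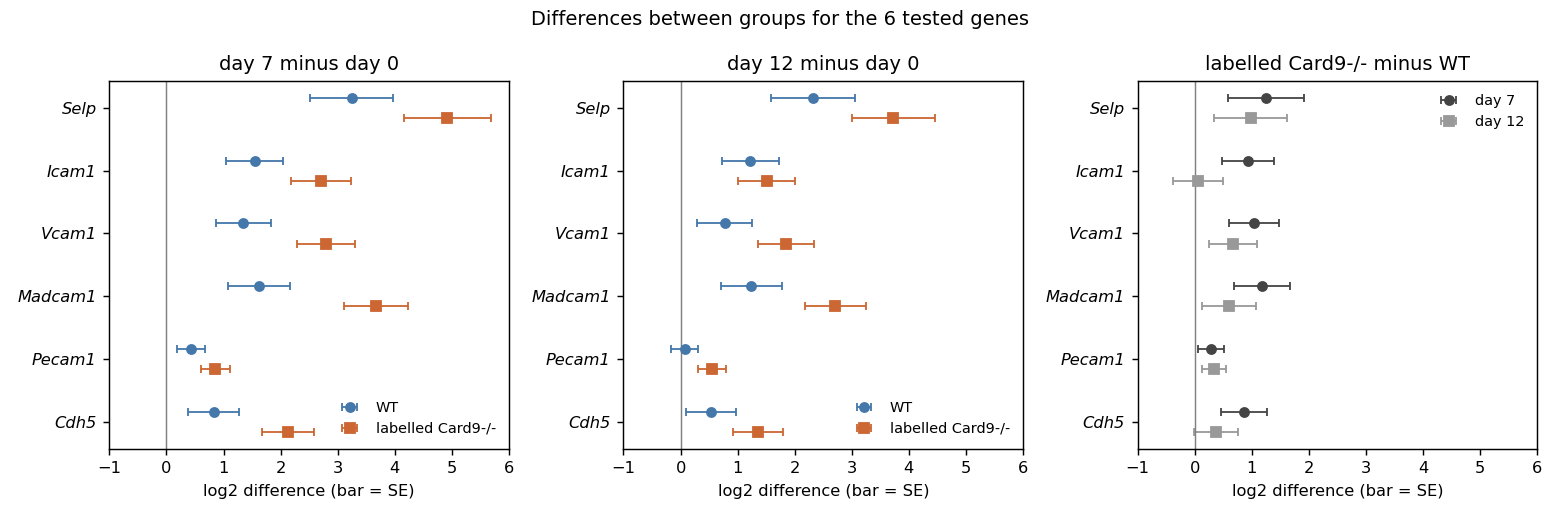
Differences of the 6 tested genes with their standard error, in log2 units on the horizontal axis, for day 7 and day 12 against day 0 in each genotype and between genotypes at days 7 and 12. Every point for day 7 against day 0 lies above 0, from 0.44 for Pecam1 in WT to 4.92 for Selp in the arrays labelled Card9-/-.

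Over the 5 days of recovery none of the 6 genes fell by the test. From day 7 to day 12 the 6 differences were negative in both genotypes, with a median of -0.95 in the arrays labelled Card9-/- and -0.37 in WT. Limma called 0 of 6 in each, where 1.97% and 0.122% of all genes fell. At an unadjusted p under 0.05 there were 2, Icam1 (-1.19 ± 0.46) and Vcam1 (-0.94 ± 0.45), in the arrays labelled Card9-/-, where 7.17% of all genes were lower at that p, and 0 in WT. For these 2 genes the day 12 arrays all lay below the day 7 arrays, which held for 3.58% of all genes in that direction. Icam1 at day 12 was at -4.16, -3.11, -2.58, -2.79 and -2.89 in the arrays labelled Card9-/-, and Vcam1 at -0.87, -0.36, 0.39, 0.58 and 0.28. In WT, without day 7 replicate 3, the differences of Icam1, Madcam1 and Cdh5 turned positive, at 0.14, 0.07 and 0.06.

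At day 12, Selp, Madcam1 and Vcam1 were still above day 0 in the arrays labelled Card9-/-. Selp was higher by 3.72 ± 0.73, at least 6.76-fold with the processed signals (limma adjusted p = 0.0042), by 1.52 with normexp and by 1.85 in the authors' deposited value table, and was called in both. Madcam1, at 0.44, 0.93, 1.41, 1.77 and 2.13, was higher by 2.71 ± 0.54, or 6.56-fold (0.00476), and Vcam1 by 1.85 ± 0.48, or 3.60-fold (0.0242). These were 3 of 6, where 3.71% of all genes were higher, and for these 3 the arrays of day 12 and day 0 did not overlap (6.96% of all genes). The differences of Cdh5 (1.35 ± 0.44, limma adjusted p = 0.069), Icam1 (1.51 ± 0.50, 0.0736) and Pecam1 (0.55 ± 0.24, 0.213) were positive and not called. The count rested on arrays: it was 6 without day 12 replicate 1, 5 without the 4 arrays with acinar genes, of which that replicate is 1, and 0 with the Hox covariate. The Vcam1 call was lost without day 0 replicate 1 or 2 or day 12 replicate 3, 4 or 5 (adjusted p up to 0.155). In WT at day 12, limma called 0 of 6, where 1.13% of all genes were higher, with 3 at an unadjusted p under 0.05 (7.54% of all genes in that direction): Selp (2.32 ± 0.73, and 0.84 with normexp), Madcam1 (1.24 ± 0.54) and Icam1 (1.22 ± 0.50). WT arrays of day 12 lay wholly above those of day 0 for Selp and Icam1, a pattern of 9.36% of all genes. Vcam1 in WT at day 12 was at -1.04, -0.10, -0.45, -1.02 and -0.77, which overlapped day 0.

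No genotype difference of these genes passed the test with all arrays. At day 7 all 6 were higher on average in the arrays labelled Card9-/-, by a median of 0.98 against -0.06 for all genes. Limma called 0 of 6, where 0.145% of all genes were called higher, and 3 had an unadjusted p under 0.05, which 5.98% of all genes had in that direction. The largest differences were 1.25 ± 0.67 for Selp (limma adjusted p = 0.365), 1.18 ± 0.50 for Madcam1 (0.235) and 1.04 ± 0.45 for Vcam1 (0.244). The 95% interval, not adjusted over genes, was -0.15 to 2.64 for Selp and 0.15 to 2.21 for Madcam1, so 0 lay inside the former and outside the latter. These intervals rest on a spread pooled over the 6 groups. At day 7 the SD of Madcam1 was 1.16 in WT and 0.36 in the arrays labelled Card9-/-. The groups overlapped in all 6 genes, and WT replicate 3 stood above the rest of its group: it had the highest WT level of all 6 genes at day 7, and they lay 1.58 above their group means on average. Without that array, 4 of 6 were called, Vcam1 (1.49, adjusted p = 0.0153), Madcam1 (1.63, 0.0229), Icam1 (1.39, 0.0244) and Cdh5 (1.21, 0.0417). In that fit 8.93% of all genes were called in either direction, 809 of 25448 higher. Without each of the other 8 arrays of day 7 the count was 0. On the slide of WT replicate 3, the differences of Selp (-0.20), Madcam1 (-0.32), Pecam1 (-0.19) and Cdh5 (-0.19) were negative, and on the other 3 slides those of all 6 genes were positive.

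**Figure D3:**
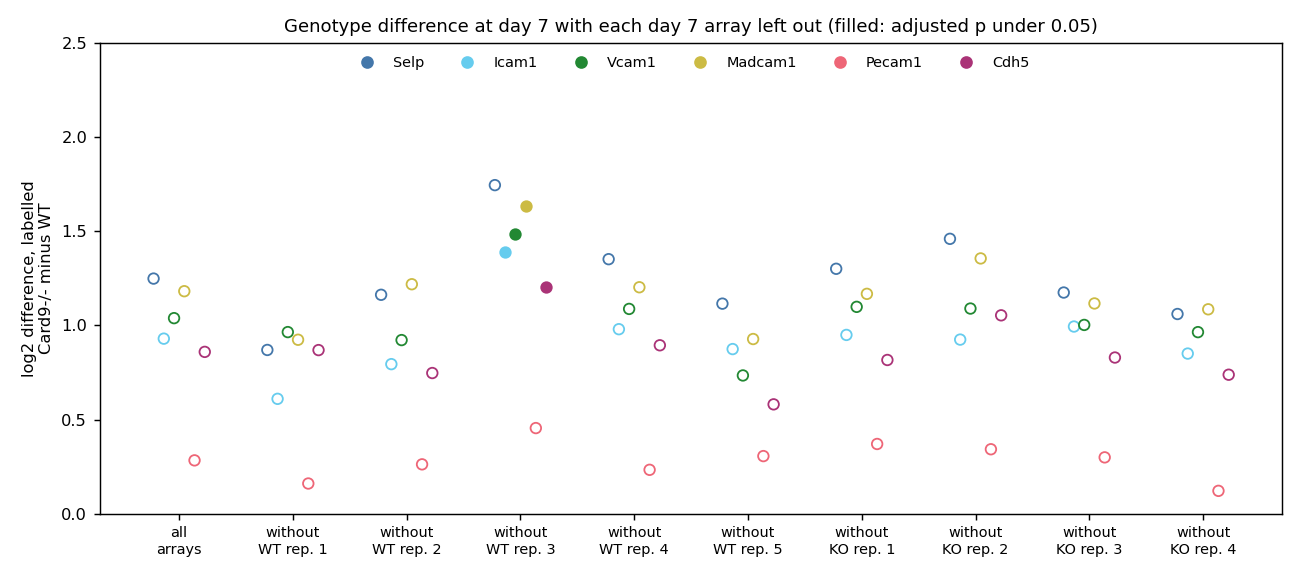
Difference between the arrays labelled Card9-/- and WT at day 7 (vertical axis, log2 units) for the 6 tested genes, with all arrays and with each day 7 array left out in turn; filled points had an adjusted p under 0.05. Filled points appear where WT replicate 3 is left out, for Icam1, Vcam1, Madcam1 and Cdh5, at 1.21 to 1.63.

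Before DSS the 6 differences between genotypes were negative, with a median of -0.41, and that of Madcam1 was farthest from 0 (-0.87 ± 0.60). Limma called 0 of 6 (0 at an unadjusted p under 0.05), where 0.00393% of all genes were called in either direction. At day 12 the median was 0.49, again with 0 of 6 called and 0 at an unadjusted p under 0.05, where 0.0196% of all genes were called higher. The rise from day 0 to day 7 was larger in the arrays labelled Card9-/- for all 6, and this interaction was called by limma for 0 of 6, where 0.00393% of all genes were called higher. The largest interaction was that of Madcam1, at 2.05 ± 0.78 (limma adjusted p = 0.305), the 1 gene with an unadjusted p under 0.05, as 4.4% of all genes had in that direction. The Madcam1 interaction includes its lower mean before DSS (-0.87) as well as its higher mean at day 7. In the change from day 7 to day 12 limma called the interaction for 0 of 6 (0 unadjusted), where 0.00786% of all genes were called. A larger response in the arrays labelled Card9-/- was thus not shown for any of these genes.

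Markers of endothelium moved with these genes. All 20 endothelium markers passed the filter. In the arrays labelled Card9-/- 17 had risen by day 7, where 6.93% of all genes rose, and the median of the 20 was 1.63. Eng, a TGF-β co-receptor of endothelium, rose by 2.26 ± 0.39, Egfl7, secreted by endothelium, by 1.92 ± 0.37, and Ecscr, an endothelial surface protein, by 1.58 ± 0.31 (limma adjusted p = 0.000474, 0.00102 and 0.00114). In WT limma called 0 of the 20 (5 at an unadjusted p under 0.05), with a median of 0.51. For day 7 against day 0 the share of all genes at that unadjusted p is not given here for either genotype. This count and those of the lists below at that p thus have no yardstick. The mean of the 20 markers was -1.27 to -0.91 at day 0 and 0.09 to 0.69 at day 7 in the arrays labelled Card9-/-, and -1.15 to -0.36 and then -1.18 to 0.74 in WT. Its highest WT value at day 7 was also on replicate 3. When this mean was subtracted on each array, 72.3% of all genes were called in the arrays labelled Card9-/-, 17936 of 25448 lower and 459 higher. A lower call thus says little there, and the sizes are given. Selp stayed 3.42 ± 0.56, Madcam1 2.17 ± 0.38, Vcam1 1.30 ± 0.33, Icam1 1.21 ± 0.42 and Cdh5 0.63 ± 0.26 above day 0, and Pecam1 turned to -0.64 ± 0.31. In WT, where 1.43% of all genes were called (149 of 25448 higher), Selp stayed 2.78 ± 0.54 higher (limma adjusted p = 0.00778), and the others were not called. In the arrays labelled Card9-/-, Selp, the 3 integrin ligands and Cdh5 were called higher relative to that mean. Cdh5 had the largest limma adjusted p of these (0.0357, unadjusted 0.025), and Pecam1 was not called (0.0688). How much of each difference goes with the amount of endothelium was not tested.

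**Figure D4:**
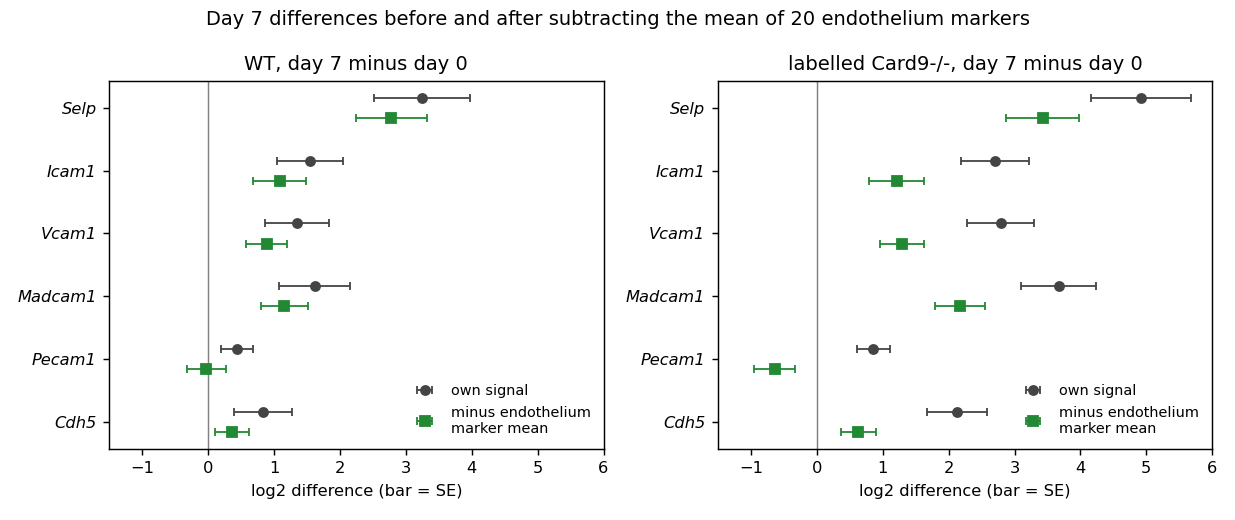
Difference of day 7 from day 0 for the 6 tested genes (horizontal axis, log2 units, bars are standard errors), from their own signal and after the mean of 20 endothelium markers on the same array was subtracted. In the arrays labelled Card9-/-, Selp went from 4.92 to 3.42 and Pecam1 from 0.86 to -0.64.

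Selp is also stored in platelets, and Pecam1 lies on platelets and leukocytes. Of 10 platelet and megakaryocyte markers 7 were tested, since the subunits Gp1ba, Gp9 and Gp5 of the platelet receptor for von Willebrand factor were not above background on enough arrays. At day 7, 3 rose in the arrays labelled Card9-/-, the platelet chemokines Pf4 (2.49 ± 0.34, limma adjusted p = 4.85e-05) and Ppbp (2.39 ± 0.57, 0.00516, not well above background at day 0) and the receptor Clec1b (0.79 ± 0.21, 0.0108). Of all genes, 6.93% rose in that comparison. In WT, where 2.02% of all genes rose and 2.33% fell, 1 of the 7 rose and 1 fell. The 1 that rose was Pf4, by 1.27 ± 0.32 (limma adjusted p = 0.0265). The mean of the 7 markers ranged from -3.75 to -3.18 at day 0 and from -2.90 to -2.14 at day 7 in the arrays labelled Card9-/-, and from -3.98 to -3.66 and then -3.34 to -2.56 in WT. All 4 tested red blood cell markers rose in the arrays labelled Card9-/-, with a median of 4.08, and limma called 0 of 4 in WT (0 unadjusted). Their part in the Selp and Pecam1 results was not tested.

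Genes of leukocyte proteins that bind these molecules had also risen by day 7 in the arrays labelled Card9-/-. Of 12 ligands, 8 rose and 0 fell, where 6.93% of all genes rose and 12.7% fell. The median of the 12 was 1.68. The β2 integrin chain Itgb2 rose by 2.79 ± 0.37 and its partner Itgal, which together bind ICAM-1, by 1.68 ± 0.34 (limma adjusted p = 4.79e-05 and 0.00163), while Itgam, the other ICAM-1 partner, differed by 0.70 ± 0.26 (0.0652). Itga4 rose by 1.78 ± 0.38 and Itgb7 by 1.67 ± 0.34 (0.0023 and 0.00175), the chains of the MAdCAM-1 integrin, and Itgb1, which with Itga4 binds VCAM-1, differed by 0.12 ± 0.17 (0.723). Selplg, the selectin ligand PSGL-1, rose by 2.53 ± 0.36 (8.59e-05). In WT 0 of 12 were called by limma (3 at an unadjusted p under 0.05), with a median of 0.27. There Itgb2 differed by 1.15 ± 0.36 (0.0729), Selplg by 0.92 ± 0.35 (0.154), Itgal by 0.79 ± 0.33 (0.208), Itgb7 by 0.27 ± 0.33 (0.727) and Itga4 by 0.25 ± 0.36 (0.777). Between genotypes at day 7 limma called 0 of the 12, with 8 at an unadjusted p under 0.05. Of all genes, 5.98% were higher in the arrays labelled Card9-/- at that p. At day 12, 8 of the 12 were above day 0 in the arrays labelled Card9-/-, where 3.71% of all genes were higher. Among them were Itgb2 (1.77 ± 0.36, limma adjusted p = 0.00531), Itgb7 (1.44 ± 0.33, 0.0109) and Selplg (1.55 ± 0.35, 0.0102).

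**Figure D5:**
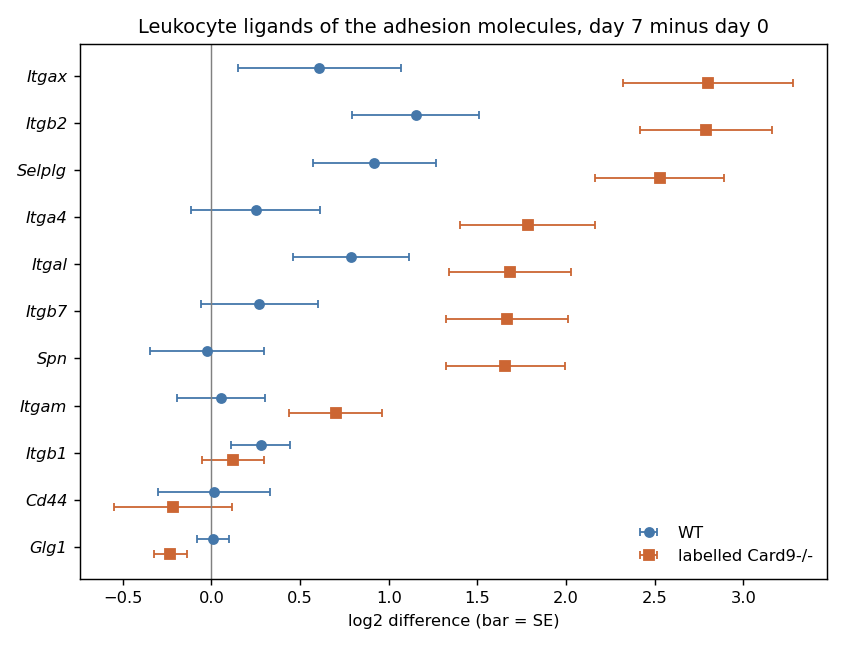
Difference of day 7 from day 0 (horizontal axis, log2 units, bars are standard errors) for 11 of the 12 leukocyte ligands of the adhesion molecules in each genotype. In the arrays labelled Card9-/-, Itgax (2.80) and Itgb2 (2.79) are the farthest of those shown from 0, while Itgb1 (0.12), Cd44 (-0.22) and Glg1 (-0.23) are near it.

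Of 8 enzymes that build the sugar part of selectin ligands, B4galt1, a galactosyltransferase, rose in the arrays labelled Card9-/- by 0.83 ± 0.17 (limma adjusted p = 0.00132) and in WT by 0.70 ± 0.16 (0.0143). In WT, where 2.33% of all genes fell, the sialyltransferase St3gal4 fell by 1.20 on the log2 scale (0.00731), as did St3gal6 (-1.27 ± 0.31, 0.0233). Of 15 genes of transmigration and endothelial junctions, 6 rose and 2 fell in the arrays labelled Card9-/-, where 6.93% of all genes rose and 12.7% fell. In WT limma called 0 of the 15 (2 at an unadjusted p under 0.05). Icam2, a constitutive endothelial ligand of β2 integrin, rose by 1.95 ± 0.36, Cd34, a sialomucin of endothelium, by 1.91 ± 0.37, and Esam, a junction protein, by 1.60 ± 0.35 (limma adjusted p = 0.00075, 0.00113 and 0.00264). The count that fell was near the share of all genes. The 2 that fell were Cd99l2 (-0.65 ± 0.18, 0.0129) and Ctnnb1, β-catenin, which binds VE-cadherin (-0.33 ± 0.11, 0.0471). These 2 were named after their values had been seen, as was Chst2 among those of high endothelial venules.

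Il1b and Tnf, cytokines known to induce the adhesion molecules, rose in both genotypes at day 7. Il1b, the cytokine IL-1β, rose by 6.05 ± 0.81 in WT (limma adjusted p = 0.000245) and by 8.91 ± 0.85, at least 273.2-fold, in the arrays labelled Card9-/- (1.93e-06). Tnf rose by 3.06 ± 0.59 in WT (0.00547) and by 4.33 ± 0.62 in the arrays labelled Card9-/- (8.06e-05). Lta, lymphotoxin α, differed by 0.62 ± 0.79 and 1.27 ± 0.82 (0.741 and 0.334). Of the 19 tested genes of these cytokines, their receptors and NF-κB, 8 rose in the arrays labelled Card9-/- and 4 in WT, with none lower. Of all genes, 6.93% and 2.02% rose. Tnfrsf1b, a TNF receptor, rose by 1.95 ± 0.39 (0.00133) and 1.35 ± 0.37 (0.0413). At day 12, Tnf in the arrays labelled Card9-/- had fallen by 2.07 from day 7 (0.0239), and Il1b differed by -2.00 ± 0.74 (0.108).

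Of 14 other genes that activated endothelium makes, 13 rose in the arrays labelled Card9-/- and 7 in WT, where 6.93% and 2.02% of all genes rose. Lrg1, a glycoprotein of inflamed vessels and liver, rose by 5.94 ± 0.45 and 4.87 ± 0.43 (limma adjusted p = 1.29e-07 and 2.11e-06), and the neutrophil chemokines Cxcl1 and Cxcl2 rose at least 29.0-fold and 21.1-fold in the arrays labelled Card9-/-, from day 0 arrays not well above background (6.07e-06 and 4.16e-05). Of 8 genes of high endothelial venules and lymphoid stroma, the sites where Madcam1 is also made, 4 rose in the arrays labelled Card9-/-, and limma called 0 in WT (0 unadjusted). They were the chemokines Ccl19 (4.72 ± 0.88, 0.00083) and Cxcl13 (2.96 ± 0.76, 0.0084), the cytokine Tnfsf11 (2.80 ± 0.69, at least 1.76-fold, 0.00638) and the sulfotransferase Chst2 (2.55 ± 0.68, 0.0105). Of 18 angiogenesis genes, 7 rose and 2 fell in the arrays labelled Card9-/-, where 6.93% of all genes rose and 12.7% fell, and limma called 0 in WT (4 at an unadjusted p under 0.05). The endothelial receptor Tie1 rose by 1.87 ± 0.44 (0.00474), and Vegfb (-1.09 ± 0.18, 0.000354) and the semaphorin receptor Nrp2 (-1.47 ± 0.30, 0.00146) fell. The 2 of 18 that fell are near the share of all genes.

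Markers of other cells that can carry ICAM-1 or VCAM-1 were counted in the same way. From day 0 to day 7, 6.93% of all genes rose in the arrays labelled Card9-/- and 2.02% in WT. By day 7 all 9 macrophage markers rose in the arrays labelled Card9-/- and 1 of 9 in WT, with C1qb (2.46 ± 0.31), Cd68 (2.98 ± 0.39) and C1qc (3.04 ± 0.43) the 3 of smallest p. Their mean was -0.96 to -0.38 before DSS and 1.78 to 2.06 at day 7 in the arrays labelled Card9-/-, and -0.57 to 0.37 and then 0.30 to 2.20 in WT. All 6 fibroblast markers rose in the arrays labelled Card9-/-, and limma called 0 in WT (5 at an unadjusted p under 0.05), with the matrix proteins Dcn (2.28 ± 0.43), Col3a1 (2.10 ± 0.44) and Col1a1 (1.98 ± 0.44) leading. Neutrophil markers rose for 6 of 9 and 5 of 9. Those of smallest p in the arrays labelled Card9-/- were S100a9, S100a8 and Retnlg, at least 2065-fold, 581.4-fold and 89.5-fold. Of 9 markers of B cells and follicles, whose stroma makes Madcam1, 3 rose in the arrays labelled Card9-/- (among them Ms4a1 by 4.06 ± 1.20 and Cd79b by 3.07 ± 1.02) and 0 in WT by limma (0 unadjusted), with a mean in the former of -3.86 to -1.14 at day 0 and -1.15 to 0.04 at day 7. Their part in the Icam1, Vcam1 and Madcam1 results was not tested.

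The remaining marker lists were described in the same comparison, in which 6.93% of all genes rose and 12.7% fell in the arrays labelled Card9-/- and 2.02% and 2.33% in WT. Of 5 tested markers of lymphatic endothelium 3 rose in the arrays labelled Card9-/- and 1 in WT, Pdpn in both (2.78 ± 0.43 and 1.51 ± 0.41), with Lyve1 (1.23 ± 0.33) and Flt4 (2.51 ± 0.86, at least 1.68-fold) in the former. Of 9 pericyte and smooth muscle markers, Pdgfrb rose (1.18 ± 0.26) and Des fell (-1.44 ± 0.48) in the arrays labelled Card9-/-, 1 of 9 in each direction and thus near the shares of all genes. Of 8 T cell markers Zap70 and Cd2 rose there (1.26 ± 0.22 and 1.89 ± 0.44), and of 5 plasma cell markers Jchain fell in WT (-2.84 ± 0.69). The epithelial genes Cdx2 (-1.26 ± 0.31) and Krt18 (-0.53 ± 0.16) fell in the arrays labelled Card9-/-, and Krt18 in WT (-0.60 ± 0.15). Of 7 Hox genes of the proximal colon, Hoxb9 (-1.25 ± 0.31) and Hoxb3 (-1.05 ± 0.36) fell in the arrays labelled Card9-/-, whose day 0 arrays ranged in the list's mean from -1.61 to 1.52. Limma called 0 fat, mesothelium or acinar markers in either genotype, with 1 mesothelium and 5 acinar markers at an unadjusted p under 0.05 in the arrays labelled Card9-/-. The smallest p were those of Retn (-1.15 ± 0.90, WT) and Fabp4 (0.73 ± 0.80), Wt1 (1.55 ± 0.68) and Msln (1.17 ± 0.58), and Cpb1 (at least 140.2-fold) and Cela1 (2.88 ± 1.24), the latter 5 in the arrays labelled Card9-/-. What part the piece of colon sampled has in the results was not tested.

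The 6 measured genes kept nearly the same order of groups. For Icam1, Vcam1, Selp, Madcam1, Pecam1 and Cdh5 alike, the arrays labelled Card9-/- at day 7 had the highest mean, WT at day 0 the second lowest and the arrays labelled Card9-/- at day 0 the lowest. Neighbours in that order mostly overlapped. Exceptions were Vcam1 between its highest group (0.94 ± 0.20, SD, n = 4) and the next, the arrays labelled Card9-/- at day 12 (0.00 ± 0.60, n = 5), and both Icam1 (-3.17 ± 0.49 and -4.39 ± 0.50) and Selp (-2.87 ± 0.96 and -5.19 ± 0.52) between WT at day 12 (n = 5) and WT at day 0 (n = 3). Over the 25 arrays the 15 pairs of genes correlated with Pearson's r of 0.81 to 0.95, highest for Vcam1 and Madcam1 (0.95) and lowest for Pecam1 and Cdh5 (0.81). With the group means removed r was 0.66 to 0.89. These values describe arrays that share tissue, labelling and scaling.

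The genes whose profile over the 25 arrays was most like each of these differed between them. Among 14038 candidates, Cdh5 was most like the endothelial genes Tie1 (r = 0.98), Cd93 (0.97) and Arap3 (0.97). Pecam1 had no close match, with Cfap69, Adgra2 and the connexin Gja4 at 0.88 each. Icam1 was most like Igsf6 (0.98), B430306N03Rik (0.95) and Serpina3g (0.95), and Vcam1 most like Pla2g7, Nrros and Emb (0.97 each). Madcam1 was nearest to Clec4n, the C-type lectin dectin-2 (0.97), and to the cytokine receptor chains Csf2rb2 and Csf2rb (0.97 each). Selp was nearest to the matrix metalloproteinase Mmp10 (0.97), its inhibitor family member Timp1 (0.96) and the cytokine Il11 (0.96). Csf2rb2 and Csf2rb are near-identical copies, and Serpina3g belongs to a family of close copies, so their probes may not tell the copies apart.

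Probes differ in how well they measure these genes. Those used lie, in build mm9 as the files give it, at chr1:166079660-166079719 (Selp), chr1:165987726-165987785 (Sele), chr9:20832290-20832349 (Icam1), chr3:115813216-115813275 (Vcam1), chr10:79131212-79131271 (Madcam1), chr11:106540864-106540923 (Pecam1) and chr8:106668159-106668218 (Cdh5). Selp had 10 spots on each array, of which 12 in all were left out for outlier flags, and their SD within an array had a median of 0.64 in the arrays labelled Card9-/- at day 0 and 0.10 at day 7. Vcam1 and Madcam1 each had a second probe, nearer the 5′ end of the transcript and dimmer. On its own, the second Vcam1 probe differed at day 7 by 3.29 ± 0.63 in the arrays labelled Card9-/- (limma adjusted p = 0.00119) and by 1.70 ± 0.60 in WT (0.136). The second Madcam1 probe differed by 3.03 ± 0.80 (0.0114) and 1.29 ± 0.76 (0.436). At day 12 it did not repeat the Madcam1 call in the arrays labelled Card9-/- (1.84 ± 0.76, 0.193), while that of Vcam1 was called (2.22 ± 0.60, 0.0337). Neither second probe was well above background on any day 0 array labelled Card9-/-. Over the 25 arrays the 2 probes correlated at 0.90 for Vcam1 and 0.83 for Madcam1.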

How the data were processed

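Colon RNA of 25 mice was labelled with Cy3 and hybridised to 1-colour Agilent arrays. The spot intensity values that the authors deposited were made with Agilent Feature Extraction 10.7.3.1, per the submitters' processing notes, are background-subtracted per the file headers, and are not normalized between arrays. A deposited series table holds log2 values, and the sources used here do not give its normalization. It served as 1 of the alternatives.

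Levels were computed as log2 processed intensity with the 75th percentile of each array taken off. Outlier-flagged spots were left out and spots of a probe averaged. Probes well above background on at least 3 of 25 arrays were kept (36263 of 55681), and the brightest probe stood for a gene. Names came from a GRCm38.p6 table by accession (27656 probes), symbol (3401) or synonym (321), or from the file (24303). Contrasts of the 6 groups came from lmFit and eBayes of limma 3.58.1 under R 4.3.3, Benjamini-Hochberg adjusted over 25448 genes or unnamed probes, and called at 0.05. The fit was tested on simulated data. Figures were drawn with matplotlib.

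Groups came from the labels. The design text names 5 Card9-/- mice at day 7, of which 4 arrays were given and the other is not analysed here. Nothing says more of the samples than 1 mouse each, so p-values measure the spread between mice. The members and the 24 gene lists were chosen with earlier results of these data known. Named were all members, their direct partners, of each list the 3 called genes of smallest p at day 7 (or 2 where none was called), and for each member the 3 genes of highest r. A few list genes that this rule names are counted with their lists and are not reported here one by one.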

Additional observations from a re-analysis of the deposited data

Results flagged for a closer look

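Sele in WT at day 12 was examined for arrays that stand apart. Its highest array, replicate 5, was at -5.35, and the nearest of the other 4 was at -6.41. That replicate is 1 of the 4 arrays with acinar genes, and Sele was not well above background on it or on any other array. Of 28 groups examined over the 7 genes, 1 had such an array, and chance gives about 1 in 20.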

How the results depend on the processing

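The 11 comparisons were recomputed under 13 alternatives and with each array left out in turn. Of the values of single genes, 1440 kept direction and call, 17 gained a call, 18 lost one and 37 changed sign, of which 0 were called after the change. Most values were not called with all arrays either, so keeping direction and call often meant staying uncalled. Not every alternative can move a difference, as a fit of only the groups of a comparison changes the p-value alone. The alternative with the dimmer probe was chosen after seeing the data. The count of members that rose from day 0 to day 7 in WT, 1 with all arrays, was 2 with normexp, 2 with the Hox covariate, 0 in the value table and 0 with only the groups of the comparison, and 0 to 3 with arrays left out. For the rise from day 0 to day 12 in the arrays labelled Card9-/- it was 3, then 0 with the Hox covariate, 5 without the 4 arrays with acinar genes, and 2 to 6 with arrays left out. Between genotypes at day 7 it was 0 to 4 with arrays left out. The cause of these shifts was not tested.

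Sign changes under subtraction of the endothelium mean were those of Pecam1 from day 0 to day 7 (-0.64 for arrays labelled Card9-/-, -0.028 in WT), at day 12 against day 0 (-0.38 and -0.097), at day 12 against day 7 in the former (0.26), between genotypes at days 0, 7 and 12 (0.22, -0.39 and -0.064) and in the interaction of genotype with the change from day 0 to day 7 (-0.61). With the same subtraction Icam1 changed sign between genotypes at days 0 and 12 (0.13 and -0.35), as did Cdh5 at day 12 (-0.033) and Cdh5 in WT from day 7 to day 12 (0.0088). The genotype difference before DSS became 0.053 for Icam1 and 0.070 for Selp with normexp, and 0.25 for Icam1 with the Hox covariate, which gave -0.028 at day 12. The dimmer Madcam1 probe gave -0.13 between genotypes at day 12 and 0.17 in WT from day 7 to day 12. Without the acinar arrays the interaction of Selp from day 7 to day 12 was 0.037.

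With arrays left out in turn, that interaction ranged from -0.77 to 0.21 for Selp and from -0.11 to 0.25 for Pecam1. Icam1 between genotypes at day 12 ranged from -0.10 to 0.32, and Pecam1 in WT at day 12 against day 0 from -0.0026 to 0.15. From day 7 to day 12 in WT the ranges were -0.57 to 0.058 for Cdh5, -0.64 to 0.14 for Icam1 and -0.63 to 0.074 for Madcam1.

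Replicate numbers did not pair the samples: over 12 pairs of same-numbered WT and Card9-/- arrays of 1 day, deviations from the group means correlated at -0.40 to 0.26, over 0.1 in 1. With the replicate block, members called from day 0 to day 12 in the arrays labelled Card9-/- were 4, Icam1 (1.43, limma adjusted p = 0.0448) being added, and Pecam1 in WT at day 12 against day 0 became -0.0059. The block changed no other call of these genes. Over all genes, calls from day 0 to day 7 went from 1106 to 38 in WT and from 5005 to 2402 in the arrays labelled Card9-/- with only the groups of the comparison, and from 5005 to 3275 without the acinar arrays. Between genotypes at day 7 they went from 140 to 30 with the replicate block, 41 with normexp, 267 in the value table, 367 with slide as a random block, 369 with a filter of 13 arrays, 6 without a filter and 1 without the acinar arrays. Sele was dim on every array, and the dim day 0 signals of Selp and Icam1 limit how exactly their folds are known.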
